A study of Mus musculus with 6 samples.

Results

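The genes described here build and supply the photoreceptor outer segment and its cilium. They were chosen by symbol from a list of disc, connecting cilium, BBS and intraflagellar transport genes. The rule itself uses no measured value, but the list was made with earlier results of these data known. All 38 were present among the 22692 genes of the deposited tables. RNA came from whole eyes of C57BL/6J mice, an inbred laboratory strain, and the times compared lay 9.0 h and 1.5 h into the light phase. All mice were females of 4 weeks, every library pooled the RNA of 5 of them, and there were 3 libraries at each time. No genotype or agent differed between the groups, and the comparison asked whether these transcripts differ between the later and the earlier time of the light phase. Nothing in the labels tells whether the 3 pools at a time came from separate mice, so the p-values reflect library-to-library spread, some of which may be technical.

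The outer segment of a rod or cone is a modified primary cilium filled with stacked membrane discs that carry the visual pigment. Its proteins are made in the inner segment and cross a narrow connecting cilium, helped by intraflagellar transport (IFT) trains, their motors and the BBSome, a coat-like cargo adaptor. Outer segments are renewed throughout life, and their tips are shed daily and taken up by the pigment epithelium, with a burst of shedding after light onset. The IFT and BBS genes serve primary cilia in most tissues, whereas the disc genes Prph2 and Rom1 are photoreceptor genes. A whole eye also holds lens, cornea, sclera, pigment epithelium and muscle, so each value is a mixture, and in such bulk RNA fewer cells of a type and less RNA per cell cannot be told apart.

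Values are RPKM, which relate the reads of a gene to its length and to the library size, so that levels can be compared between genes. Estimated depth was between 24040000 and 31770000 reads at 9.0 h, and 28950000, 12690000 and 13000000 reads in 1.5 h replicates 1 to 3. Whole-eye markers were present. Cryaa, a lens crystallin, had 42780 ± 2300 RPKM at 9.0 h and 25760 ± 7920 RPKM at 1.5 h (SD, n = 3 each). Crybb2, the most abundant lens marker, had 34020 ± 4640 RPKM at 9.0 h and 35950 ± 1630 RPKM at 1.5 h. By log2 fold change (9.0 h minus 1.5 h), 16 of the 18 lens markers were above 0 and 2 below it. Krt12, a corneal keratin, had 1595 ± 245 RPKM at 9.0 h and 1664 ± 432 RPKM at 1.5 h. The corneal marker Aldh3a1 had 1270 ± 201 RPKM at 9.0 h and 1238 ± 320 RPKM at 1.5 h. In 1.5 h replicate 1 the lens markers summed to 120500 RPKM, against 204400 to 248100 RPKM at 9.0 h and 179800 and 213100 RPKM in the other 1.5 h libraries. The summed rod markers overlapped between the times (10630 to 11840 RPKM at 9.0 h and 11410 to 12650 RPKM at 1.5 h). Markers of motile cilia, which also use IFT genes, summed to 3.655 to 4.908 RPKM at 9.0 h and 4.005 to 4.739 RPKM at 1.5 h over the 8 measured genes. Their best-known regulator, Foxj1, averaged 1.51 RPKM at 9.0 h and 1.364 RPKM at 1.5 h.

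Ciliary genes are known targets of RFX transcription factors, which bind a sequence called the X-box, and photoreceptor genes of CRX. Promoters (250 bases before to 50 after the gene start, RefSeq, build GRCm38.p6) were found for 33 of the 38 genes. The X-box core GTTGCC, searched on both strands, lay in the promoters of 11 of these 33 genes (33.3%), against 14.1% of all 27025 genes with a promoter. One window per gene is shown because these set out the ciliary transport genes that carry this core; capitals mark the core or its reverse complement GGCAAC.

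Bbs1, chr19:4906609-4906638, minus strand: atggctgagctgGTTGCCaaggcgacgcct
Bbs5, chr2:69647191-69647220, plus strand: gatgtcgtgacaaagccggcgcGTTGCCtt
Bbs7, chr3:36613493-36613522, minus strand: gaatgcgccccgGTTGCCttggaaaccggc
Ift140, chr17:25015965-25015994, plus strand: gcgtgttgtgacGGCAACctcgcgcccttg
Ift172, chr5:31291097-31291126, minus strand: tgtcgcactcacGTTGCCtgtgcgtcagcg
Ift27, chr15:78174073-78174102, minus strand: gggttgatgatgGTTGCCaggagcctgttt
Ift57, chr16:49699195-49699224, plus strand: gaggcgggtctgGTTGCCgtggtgaccggc
Ift88, chr14:57424080-57424109, plus strand: ggagtcgcgcctGGCAACggctgggcgtcc
Kif17, chr4:138262166-138262195, plus strand: gacgtcacggagGTTGCCcagcaacggcga
Kif3a, chr11:53567259-53567288, plus strand: caccccgcaggcGTTGCCccagtctagcgt
Nphp4, chr4:152478131-152478160, plus strand: tggtgcatcccgGTTGCCagctgatgttgg

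All of the 11 genes are BBS, IFT, kinesin or transition zone genes, but such genes make up most of the list. The 38 include 10 BBS genes, 10 and 2 genes of IFT complexes B and A, 3 kinesins and 5 connecting cilium genes. None of the 3 disc genes holds the core. Since 14.1% of all genes hold it, 3 genes are too few to compare roles. Whether the share with the core differs between roles was not tested. Rp1, Rp1l1, Ift80, Ift81 and Ift122 had no promoter entry. The CRX core TAATCC, on either strand, was found for Bbs1, Rpgrip1 and Unc119 (9.09% of the 33, against 8.14% of all genes). The clock E-box CACGTG was found for Arl3 and Bbs7 (6.06%, against 8.09%). The motifs were searched independently of each other, and a match describes letters only. The promoters of the tetraspanin pair Rom1 and Prph2, and of Rpgrip1, which had the largest fold change, are given in full. Whether these sequences bear on the levels below was not tested. Capitals in Rpgrip1 mark the CRX core as GGATTA, its reverse complement.

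Rom1, chr19:8929307-8929606, minus strand: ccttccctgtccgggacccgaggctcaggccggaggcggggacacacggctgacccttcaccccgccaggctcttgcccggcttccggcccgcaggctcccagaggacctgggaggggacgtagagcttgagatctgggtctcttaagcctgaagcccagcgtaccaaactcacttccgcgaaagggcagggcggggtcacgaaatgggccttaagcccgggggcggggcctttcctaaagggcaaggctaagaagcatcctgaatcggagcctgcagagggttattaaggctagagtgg
Prph2, chr17:46910228-46910527, plus strand: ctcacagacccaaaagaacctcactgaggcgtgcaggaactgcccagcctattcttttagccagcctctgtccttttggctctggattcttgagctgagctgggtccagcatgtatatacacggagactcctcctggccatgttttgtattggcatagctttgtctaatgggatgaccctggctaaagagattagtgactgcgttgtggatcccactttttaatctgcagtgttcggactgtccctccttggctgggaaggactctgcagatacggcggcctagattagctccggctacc
Rpgrip1, chr14:52110653-52110952, plus strand: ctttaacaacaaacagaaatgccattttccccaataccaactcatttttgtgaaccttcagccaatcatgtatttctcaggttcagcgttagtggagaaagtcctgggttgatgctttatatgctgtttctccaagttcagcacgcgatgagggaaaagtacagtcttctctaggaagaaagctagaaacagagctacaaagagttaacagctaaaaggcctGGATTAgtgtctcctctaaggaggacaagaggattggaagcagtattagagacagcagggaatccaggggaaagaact

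The Rpgrip1 core begins 28 bases before the gene start, and the windows of Rom1 and Prph2 hold none of the motifs searched.

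Levels spanned a wide range. Rom1 (mean 988.7 RPKM over the 6 libraries), Unc119 (978.1) and Prph2 (743.5) stood at the top, and Kif17 (0.634 RPKM) at the bottom. Those top 3 genes made up between 72.9% and 82.3% of the summed RPKM of the 38 genes in every library. Arl3 followed at 150.5 RPKM, 19 genes lay between 10 and 100 RPKM, and 15 lay below 10 RPKM. In the order of levels, 32 of the 37 neighbouring pairs had library ranges that overlapped. The breaks without overlap lay between Prph2 and Arl3, Arl3 and Prom1, Ttc8 and Bbs2, Rp2h and Rpgrip1l, and Rpgr and Kif17. Over the 6 libraries the highest value of a gene was 1.5 times its lowest at the median, and 2.35 times in Arl6, the widest. With the longest annotated transcript as length, the library with the fewest reads held an estimated 15439 for Rom1, 422 for Cep290 and 54 for Rpgr. Kif17 had about 20 reads in its lowest library.

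**Figure D1:**
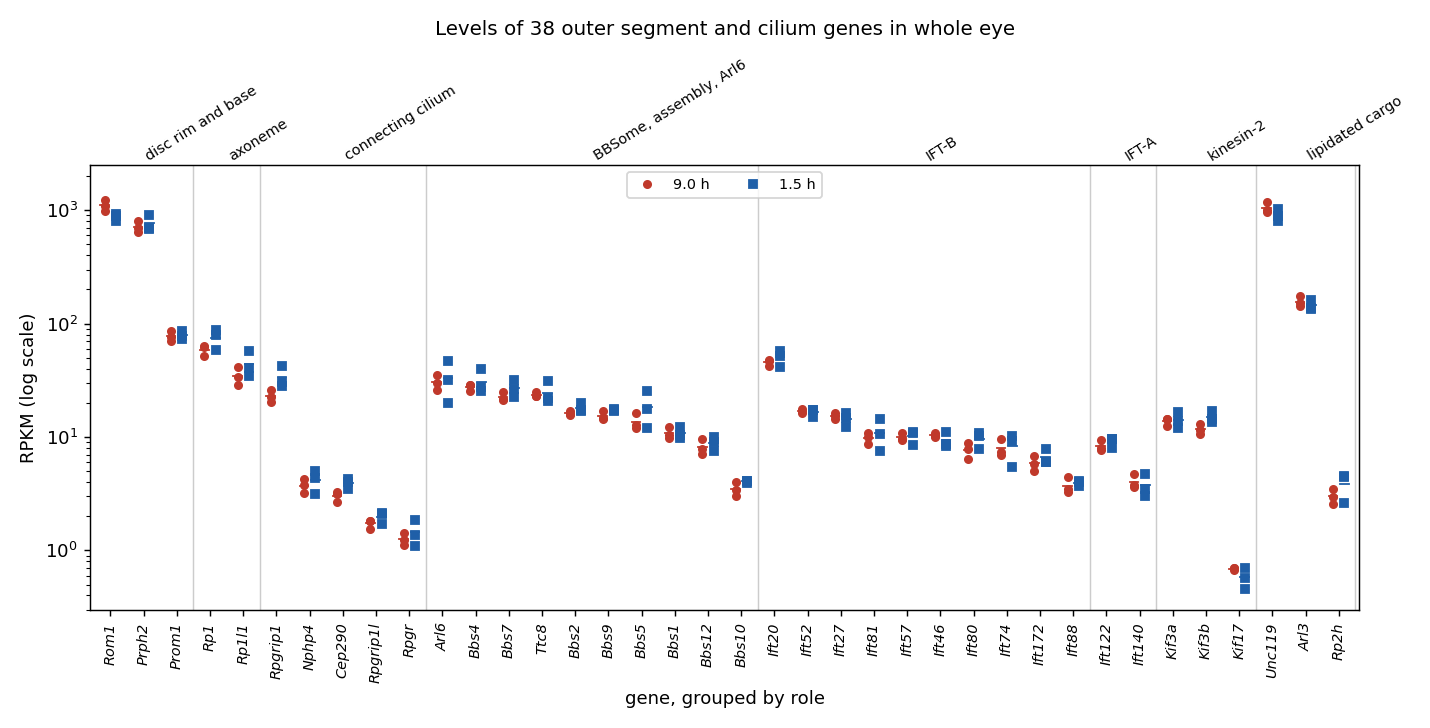
RPKM of each of the 38 genes in every library on a log axis, grouped by role and ordered by mean level within a role. Circles are the 3 libraries at 9.0 h, squares the 3 at 1.5 h, and short lines their means. Rom1, Prph2 and Unc119 lie between 649.1 and 1235 RPKM, and Kif17 below 1 RPKM.

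None of the 37 tested genes was called between 9.0 h and 1.5 h (limma on log2(RPKM + 0.1), Benjamini-Hochberg adjusted p below 0.05 over all tested genes). Kif17 did not reach 1 RPKM in 3 libraries and was not tested. Over all 13490 tested genes 0.222% were called, 0.148% higher and 0.0741% lower at 9.0 h (20 and 10 genes). That split was 20 higher and 19 lower when scaled without lens genes, and 688 higher and 18 lower with rod markers set equal. The adjusted p of the 37 genes lay between 0.288 and 0.997. At an unadjusted limma p of 0.05, 3 of 37 passed (8.11%), against 11.1% of all tested genes. In 5 of 37 (13.5%) the libraries of the times did not overlap, 1 higher and 4 lower at 9.0 h, against 18.2% of all tested genes (9.78% higher, 8.41% lower). Both shares, over both directions, were below those of all genes. For each of the 37 genes the 95% limma interval, not adjusted for the number of genes, stayed within 1 of 0 on the log2 scale. Its lowest bound was −0.92, for Rpgrip1, and its highest 0.70, for Rom1. Of all tested genes 94.4% had such an interval.

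Most fold changes had the same sign. Log2 fold changes (9.0 h minus 1.5 h) were below 0 in 29 of 37 genes (78.4%), against 50.6% of all tested genes. Their median was −0.13, against −0.003 over all tested genes. Medians below 0 were also seen in marker lists of photoreceptors, with log2 fold changes of −0.30 over 8 rod genes and −0.24 over 7 cone genes, and of the pigment epithelium, with −0.26 over 6 genes. Bipolar cell markers had −0.185 over 6 genes and Mueller glia markers −0.067 over 5, so photoreceptors were not alone in the retina. Lens markers had 0.49 over 18 genes, skeletal muscle markers 0.31 over 8 and corneal markers 0.006 over 4. None of these markers was called, and the part of tissue shares in the signs was not tested. With each library set to equal mean log2 levels of the rod markers, the median of all genes was 0.24 and that of the 37 was 0.12. That scaling moves all genes up together, and 21 of the 37 changed sign under it, all from below 0 to above it. The shared sign therefore depends on the scaling. Because the shift is the same for every gene, this scaling could not change the distance between the median of the 37 and that of all genes. With GC and length trends removed from each library, 26 of 37 were below 0 and the median was −0.07. Because 0.1 RPKM was added before taking logs, fold changes of low genes are understated.

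**Figure D2:**
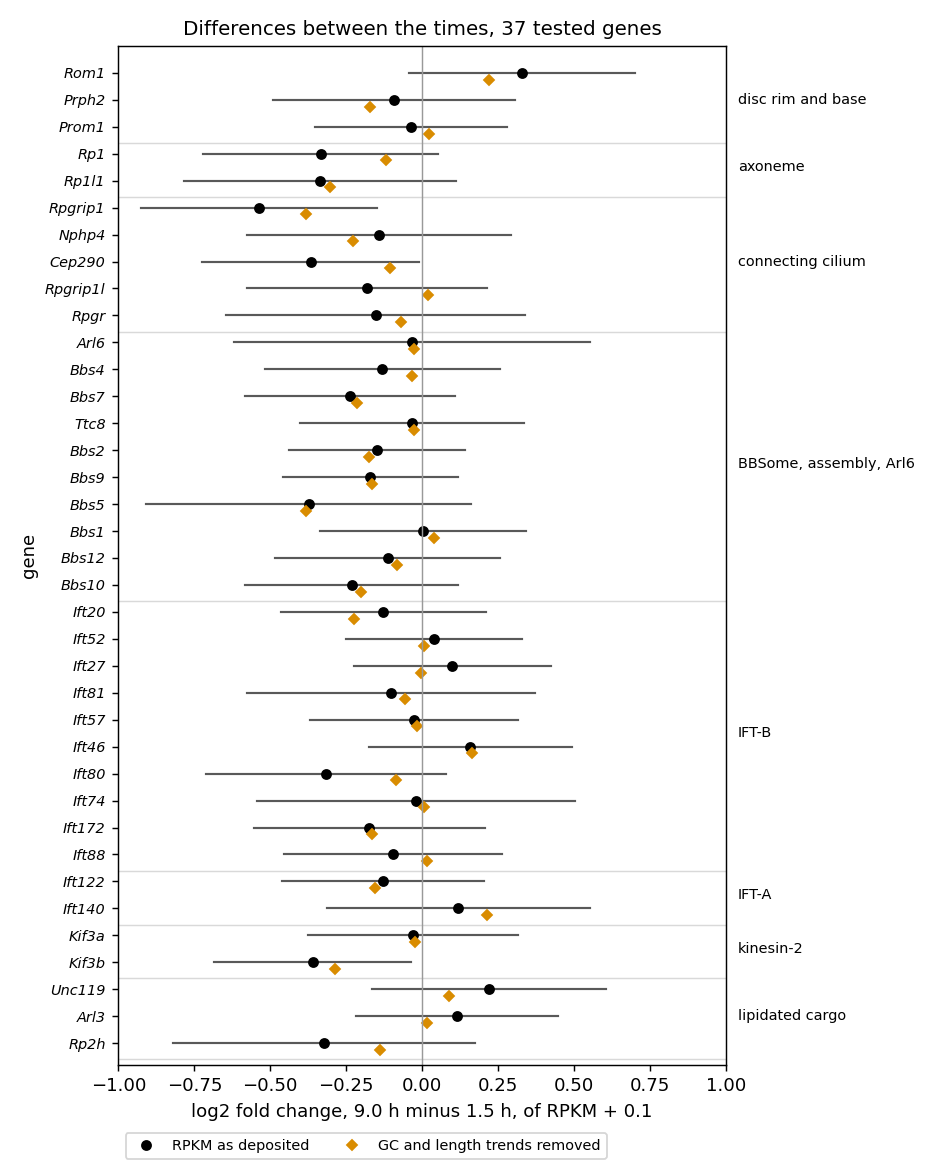
Log2 fold change of RPKM + 0.1, 9.0 h minus 1.5 h, for the 37 tested genes by role. Circles with lines are limma estimates with their 95% intervals (3 libraries at each time), and diamonds are the estimates with GC and length trends removed. Every interval lies within 1 of 0, from −0.92 for Rpgrip1 to 0.70 for Rom1, and the diamonds of Cep290, Rp1 and Ift80 lie nearer to 0 than their circles.

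Of the disc genes, the tetraspanins Prph2 (peripherin 2) and Rom1 together shape the disc rim, and Prom1 (prominin 1) sits where new discs form at the base. Rom1 had 1081, 990.7 and 1235 RPKM at 9.0 h and 890.9, 802.0 and 932.3 RPKM at 1.5 h. All 9.0 h libraries lay above all 1.5 h libraries, with means of 1102 ± 123 RPKM at 9.0 h and 875.1 ± 66.6 RPKM at 1.5 h (SD, n = 3 each). The log2 fold change was 0.33 ± 0.17 SE (limma adjusted p = 0.515). Prph2 had 694.8, 649.1 and 809.9 RPKM at 9.0 h and 916.6, 688.9 and 701.6 RPKM at 1.5 h. Its libraries overlapped, 1.5 h replicate 1 was the highest, and the log2 fold change was −0.09 ± 0.18 SE (limma adjusted p = 0.889). Prom1 had 77.31 ± 7.72 RPKM at 9.0 h and 79.24 ± 6.56 RPKM at 1.5 h, with a log2 fold change of −0.04, which was 0.02 with GC and length trends removed.

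Prph2 and Rom1 proteins assemble with each other, so their ratio within a library was also read, a choice made after their values were seen. The ratio of Rom1 to Prph2 RPKM was 1.56, 1.53 and 1.52 at 9.0 h and 0.972, 1.16 and 1.33 at 1.5 h. It was higher in each of the 9.0 h libraries than in any 1.5 h library, with means of 1.54 ± 0.018 at 9.0 h and 1.16 ± 0.179 at 1.5 h (SD, n = 3 each). A ratio of this kind does not depend on how the libraries are scaled, but it shows unequal change only. The difference in mean log2 ratio was 0.42, with an exact two-sided permutation p = 0.1, the smallest that 3 against 3 libraries can give. Ratios that do not overlap always give this p, and the pair was chosen after its values were seen. The p therefore lends no support to a difference. How often ratios of other gene pairs do not overlap was not tested. Leaving out 1 library at a time gave 0.30 to 0.53, and removing GC and length trends 0.39. The transcripts had GC contents of 57.1% for Rom1 and 54.1% for Prph2.

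Rp1 and Rp1l1 are related microtubule-binding proteins of the outer segment axoneme, and both had lower means at 9.0 h. Rp1 had 63.21, 62.75 and 51.32 RPKM at 9.0 h and 58.77, 87.79 and 79.06 RPKM at 1.5 h. The low value of 1.5 h replicate 1 made the times overlap, and the log2 fold change was −0.33 ± 0.18 SE (limma adjusted p = 0.533). Rp1l1 had 41.21, 28.78 and 34.07 RPKM at 9.0 h and 57.8, 34.85 and 40.38 RPKM at 1.5 h, with −0.34 ± 0.20 (limma adjusted p = 0.591). Here the same library was the highest, so the pair went opposite ways in it. Their GC contents were 39.6% for Rp1 and 55.2% for Rp1l1, and with GC and length trends removed the log2 fold changes were −0.12 and −0.30.

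The connecting cilium genes had the largest single fold change. Rpgrip1, which anchors the GTPase regulator Rpgr in the connecting cilium, had 25.91, 22.65 and 20.43 RPKM at 9.0 h and 42.54, 30.44 and 28.35 RPKM at 1.5 h. The times did not overlap, and the log2 fold change was −0.54 ± 0.18 SE (limma adjusted p = 0.288). It was −0.36 without 1.5 h replicate 1 and −0.38 with GC and length trends removed. In GENCODE M21, 8.7% of the exonic bases of Rpgrip1 lie over exons of Supt16h (there Supt16) on the opposite strand, and the sources used here do not give the strand setting of the counting. Supt16h had 7.982 ± 0.668 RPKM at 9.0 h and 8.485 ± 1.13 RPKM at 1.5 h (SD, n = 3 each).

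Cep290, a large protein of the links between microtubules and membrane in the transition zone, had 3.251, 3.119 and 2.668 RPKM at 9.0 h and 3.458, 4.047 and 4.23 RPKM at 1.5 h. These did not overlap either, with a log2 fold change of −0.37 ± 0.16 SE (limma adjusted p = 0.438). Its GC content of 38.7% was below that of every other tested gene of the list but Rp2h, and with GC and length trends removed the value was −0.10. Exons of 4930430F08Rik on the opposite strand cover 7.58% of its exonic bases, and that gene had 2.901 ± 0.337 RPKM at 9.0 h and 3.638 ± 0.836 RPKM at 1.5 h. Nphp4, a transition zone scaffold, Rpgrip1l, a relative of Rpgrip1 found in most primary cilia, and Rpgr overlapped between the times. Their means were 3.734, 1.729 and 1.261 RPKM at 9.0 h and 4.177, 1.979 and 1.44 RPKM at 1.5 h, with log2 fold changes of −0.14, −0.18 and −0.15. In RPKM, Rpgrip1 stood above its partner Rpgr in every library. All 5 fold changes were below 0 with a median of −0.18; with rod markers set equal the median was 0.06, below the 0.24 of all genes under that scaling.

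**Figure D3:**
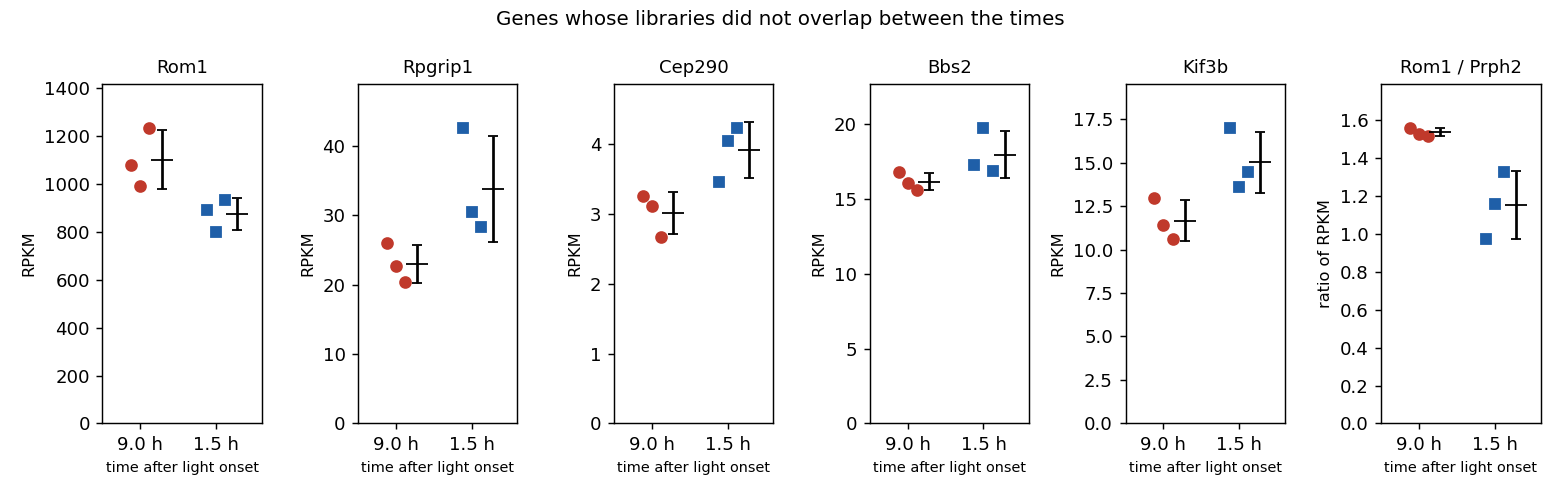
RPKM in each library at 9.0 h (circles) and 1.5 h (squares) of the 5 tested genes without overlap between the times, and the ratio of Rom1 to Prph2, each axis starting at 0. Black marks are means with SD, n = 3. Rom1 and the ratio are higher at 9.0 h (means 1102 RPKM at 9.0 h against 875.1 RPKM at 1.5 h, and 1.54 at 9.0 h against 1.16 at 1.5 h), and Rpgrip1, Cep290, Bbs2 and Kif3b lower, none of them called.

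The BBSome carries membrane proteins out of cilia and is built from BBS subunits, among them Bbs1, Bbs2, Bbs4, Bbs5, Bbs7, Bbs9 and Ttc8. Bbs10 and Bbs12 are chaperonin-like proteins that help to assemble it, and the small GTPase Arl6 recruits it to membranes. None of these 10 genes was called, 9 had fold changes below 0, and the median was −0.14, or 0.10 with rod markers set equal, where that of all genes was 0.24. The core subunits lay within a narrow band of levels over the 6 libraries, between 10.83 RPKM for Bbs1 and 29.12 RPKM for Bbs4, with Bbs7 at 24.71 and Ttc8 at 24.03 RPKM. Arl6 had 31.67 RPKM, and the assembly factors Bbs10 and Bbs12 were lower, at 3.772 and 8.523 RPKM. Bbs2 had 16.79, 16.1 and 15.61 RPKM at 9.0 h and 17.27, 19.75 and 16.85 RPKM at 1.5 h. Its times did not overlap, by a narrow margin, and the log2 fold change was −0.15 ± 0.13 SE (limma adjusted p = 0.735).

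Bbs1, the subunit that Arl6 binds, had 12.31, 9.732 and 10.49 RPKM at 9.0 h and 12.32, 9.755 and 10.39 RPKM at 1.5 h. Libraries with the same number were nearly equal, the means were 10.84 ± 1.32 RPKM at 9.0 h and 10.82 ± 1.34 RPKM at 1.5 h (SD, n = 3 each), and the 95% limma interval of the log2 fold change was −0.34 to 0.34. By contrast Bbs5, a subunit that binds phosphoinositides, had 11.89, 16.22 and 12.68 RPKM at 9.0 h and 11.96, 25.26 and 17.66 RPKM at 1.5 h. The spread at 1.5 h exceeded the difference between the means, and the log2 fold change was −0.37 ± 0.24 SE (limma adjusted p = 0.622). Arl6 spread still more, with 26.2, 35.13 and 30.13 RPKM at 9.0 h and 19.86, 46.67 and 32.01 RPKM at 1.5 h, and its log2 fold change was −0.03 ± 0.26 SE. The remaining genes had log2 fold changes of −0.24 for Bbs7, −0.23 for Bbs10, −0.17 for Bbs9, −0.13 for Bbs4, −0.11 for Bbs12 and −0.03 for Ttc8.

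The IFT-B complex drives outward transport along the axoneme. None of its 10 genes was called, 7 had fold changes below 0, and the median was −0.06, or 0.18 with rod markers set equal, where that of all genes was 0.24. Its members differed more in level than the BBSome core: Ift20, which also acts at the Golgi, averaged 47.99 RPKM over the 6 libraries and Ift88, whose mutation disturbs outer segments in mice, 3.844 RPKM. Ift52 (16.74), the small GTPase Ift27 (14.88) and Ift81 (10.33 RPKM), which binds tubulin together with Ift74 (8.15 RPKM), lay between them. Ift52 had the smallest span of the 38 genes (highest over lowest library 1.18), with 16.28, 17.69 and 16.87 RPKM at 9.0 h and 17.2, 17.43 and 14.93 RPKM at 1.5 h (95% limma interval of the log2 fold change −0.25 to 0.33). Ift80 had the largest fold change of the complex, with 7.812, 8.882 and 6.378 RPKM at 9.0 h and 7.762, 10.8 and 10.25 RPKM at 1.5 h. Its times overlapped, and the log2 fold change was −0.32 ± 0.18 SE (limma adjusted p = 0.563), or −0.08 with GC and length trends removed. Ift46 had the highest, at 0.16 ± 0.15 SE (limma adjusted p = 0.758). The other log2 fold changes were −0.17 for Ift172, −0.13 for Ift20, −0.10 for Ift81, −0.10 for Ift88, −0.03 for Ift57, −0.02 for Ift74, 0.04 for Ift52 and 0.10 for Ift27.

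The IFT-A complex serves the return leg, and its 2 listed genes had fold changes of either sign without a call. Ift122 had 8.3 ± 0.904 RPKM at 9.0 h and 9.087 ± 0.953 RPKM at 1.5 h, and Ift140 had 4.049 ± 0.617 RPKM at 9.0 h and 3.757 ± 0.892 RPKM at 1.5 h (SD, n = 3 each), with log2 fold changes of −0.13 and 0.12. Kif3a and Kif3b are the motor subunits of heterotrimeric kinesin-2, which pulls IFT trains outward. Kif3b had 12.95, 11.41 and 10.63 RPKM at 9.0 h and 16.99, 13.6 and 14.46 RPKM at 1.5 h. The times did not overlap, and the log2 fold change was −0.36 ± 0.15 SE (limma adjusted p = 0.398), or −0.29 with GC and length trends removed. Its partner Kif3a had 13.8 ± 1.21 RPKM at 9.0 h and 14.18 ± 2.34 RPKM at 1.5 h, with −0.03 ± 0.16. Whether the partners differ in fold change was not tested. Kif17, a homodimeric motor of the same family, had 0.7048, 0.6682 and 0.6991 RPKM at 9.0 h and 0.7036, 0.4609 and 0.5675 RPKM at 1.5 h.

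Unc119 binds the lipid tail of transducin and other cargo, Arl3 is the GTPase that releases that cargo in the cilium, and Rp2h (RP2) switches Arl3 off. Unc119 had 1014, 962.1 and 1180 RPKM at 9.0 h and 1024, 804.6 and 882.8 RPKM at 1.5 h. The times overlapped through 1.5 h replicate 1, and the log2 fold change was 0.22 ± 0.17 SE (limma adjusted p = 0.699). Arl3 had 156.6 ± 17.4 RPKM at 9.0 h and 144.5 ± 13.7 RPKM at 1.5 h (SD, n = 3 each), with 0.12 ± 0.15. Rp2h had 2.965, 3.464 and 2.552 RPKM at 9.0 h and 2.61, 4.455 and 4.493 RPKM at 1.5 h. Here 1.5 h replicate 1 lay among the 9.0 h libraries, and the log2 fold change was −0.32 ± 0.23 SE (limma adjusted p = 0.652). In RPKM, Unc119 stood above Arl3 and Arl3 above Rp2h in every library.

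Deviations of single libraries moved with base composition. The 19 genes with GC content up to the median of 47.2% deviated from their own 6-library mean by −0.11, 0.07 and −0.20 (log2) on average in 9.0 h replicates 1 to 3. In 1.5 h replicate 2 they deviated by 0.33, and the other 18 genes by −0.01. In 1.5 h replicate 1 these values were −0.19 and 0.14. Across the 37 genes, deviation and GC content correlated with r = 0.64, −0.52 and 0.63 in 9.0 h replicates 1 to 3 and 0.57, −0.82 and −0.52 in 1.5 h replicates 1 to 3. Over 13377 tested genes r was 0.38, −0.26 and 0.41 at 9.0 h and 0.33, −0.54 and −0.19 at 1.5 h. These are descriptions across genes of shared libraries, and genes are not independent replicates. Of the 38 genes, 15 were lowest in 9.0 h replicate 3, and 19 were highest in 1.5 h replicate 2. Fold changes were below 0 in 18 of the 19 genes up to the median GC and in 11 of the 18 above it. The genes up to the median GC had a median log2 fold change of −0.13 and those above it −0.11, or −0.055 and −0.16 with GC and length trends removed.

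**Figure D4:**
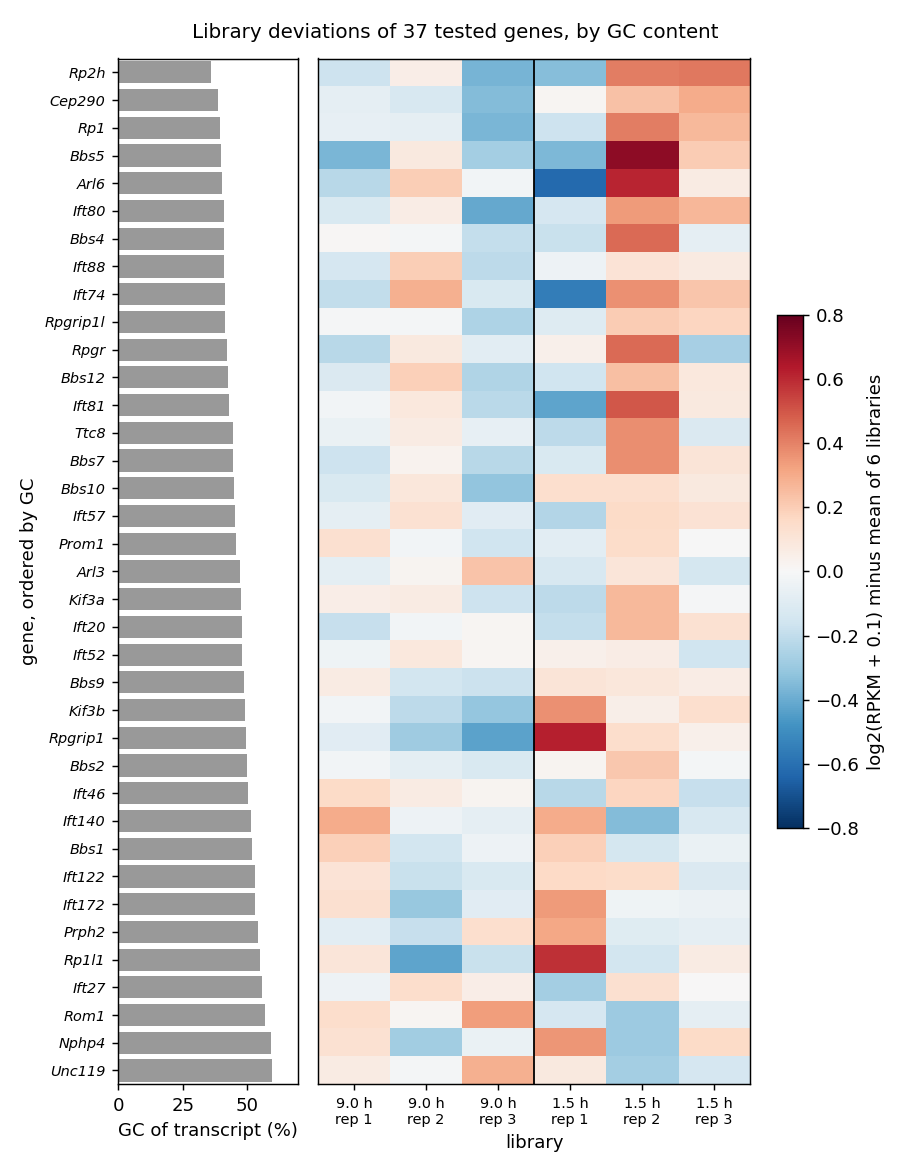
Left, GC content of the longest transcript of each of the 37 tested genes, from the lowest (Rp2h, 35.9%) to the highest (Unc119, 59.7%). Right, log2(RPKM + 0.1) of each library minus the mean of the 6 libraries, in colour, with 9.0 h replicates left of the line and 1.5 h replicates right of it. Low-GC genes are above their mean in 1.5 h replicate 2 (0.33 on average) and below it in 1.5 h replicate 1 (−0.19).

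Leaving out 1.5 h replicate 1, the library with low lens markers, gave calls to 3 of the 37 genes (9.23% of all tested genes were called in that fit). Bbs5 then had a log2 fold change of −0.65 (limma adjusted p = 0.00197; 0.00197 to 0.986 over all alternatives). Rp2h had −0.58 (limma adjusted p = 0.0253; 0.0253 to 0.991), and Rp1 −0.50 (limma adjusted p = 0.027; 0.027 to 0.981). All 3 have low GC contents (Bbs5 39.9%, Rp2h 35.9%, Rp1 39.6%). The 1.5 h replicates 2 and 3 that remained had the lowest estimated depths, 12690000 and 13000000 reads. Deviation and GC content correlated at −0.82 and −0.52 in them, against 0.64, −0.52 and 0.63 in 9.0 h replicates 1 to 3. The part of depth and GC in these calls was not tested. No gene of the list was called when any other single library was left out. With rod markers set equal, Rom1 was called at 0.57 (limma adjusted p = 0.049; 0.049 to 0.975 over all alternatives), where 5.23% of all tested genes were called and the median of all genes was 0.24. None of the list was called with GC and length trends removed (0.568% of all tested genes called), with array weights (4.29%) or with the replicate number as a block (1.05%).

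Other genes of the same machinery, from lists of related function, gave no call either in the fit to all libraries. Of 19 tested IFT and motor genes 12 were below 0 (median −0.05). The most abundant were Dynll1, a dynein light chain shared with other complexes, at 44.28 ± 4.56 RPKM at 9.0 h and 31.78 ± 4.82 RPKM at 1.5 h (log2 fold change 0.48, limma adjusted p = 0.285), and Kifap3, the third subunit of kinesin-2, at 19.67 ± 2.48 RPKM at 9.0 h and 18.39 ± 3.64 RPKM at 1.5 h (0.11). Of 7 further BBS-related genes 6 were below 0 (median −0.07), with Rab8a, a GTPase of ciliary membrane delivery, at −0.02 and its activator Rab3ip at 0.20. Of 21 transition zone and related genes 16 were below 0 (median −0.13), with B9d2 and Ahi1, both transition zone proteins, at −0.13 each. Of 16 outer segment genes 12 were below 0 (median −0.18). Gucy2f, a photoreceptor guanylate cyclase named here after its values were seen, had 5.88, 5.909 and 5.981 RPKM at 9.0 h and 9.525, 11.38 and 9.227 RPKM at 1.5 h. Its times did not overlap, and its log2 fold change of −0.75 ± 0.14 SE (limma adjusted p = 0.0772) was larger in size than that of any of the 37 genes. It was called in 4 alternatives: scaled without lens genes (limma adjusted p = 0.0459), with the replicate number as a block (limma adjusted p = 0.023), with array weights (limma adjusted p = 0.00416) and without 1.5 h replicate 1 (limma adjusted p = 0.000184). Guca1a, a calcium sensor of guanylate cyclase, had 431.9 ± 87.8 RPKM at 9.0 h and 508.4 ± 95.2 RPKM at 1.5 h (log2 fold change −0.24, limma adjusted p = 0.722), and Tulp1, needed for transport into the outer segment, 231.9 ± 22.6 RPKM at 9.0 h and 210.9 ± 9.84 RPKM at 1.5 h (0.13, limma adjusted p = 0.789).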

How the data were processed

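RNA of whole eyes was sequenced in 6 libraries, and 1 table per library was deposited. Each table holds RPKM values, made by the authors, for 22692 gene symbols. The unit was read from the values, which were not whole and whose low values fell on steps set by gene length. The aligner GSNAP, the counter HTSeq and build mm9 are named per the submitters' processing notes. The sources used here do not give versions, annotation, strand setting or the handling of reads that match several places.

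Depth was estimated from those steps in genes with 1 annotated transcript (68.9% to 72.1% of low values within 0.1 read of a whole number). It was 12690000 to 31770000 reads, and no counting interval is given, since these reads are estimates.

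A gene entered the fit when 3 or more libraries reached 1 RPKM (13490 genes). The fit used limma 3.58.1 in R 4.3.3 on log2(RPKM + 0.1), with trend and robust settings, 9.0 h minus 1.5 h, two-sided. The design was checked on simulated data. Every member is named, and of other lists the called genes or else the 2 most abundant. The members and lists were chosen with earlier results of these data known, and no list was tested as a set. GC content, length and overlapping exons came from GENCODE M21 (GRCm38) by symbol, with older symbols from RefSeq (99.2% of tested genes matched). No near-identical copy (at least 200 nt at 95% identity, minimap2 2.31) lay outside a member's own locus. Alternatives were pseudocounts of 0.01 and 1, other filters, quantile normalization, scaling without lens genes or to rod genes, removal of GC and length trends (loess, span 0.3), array weights, a replicate block, and leaving out each library.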

Additional observations from a re-analysis of the deposited data

How the results depend on the processing

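Over 17 alternatives, 563 of 629 single-gene values had the sign and side of the threshold given above, 62 had the other sign and 4 passed the threshold. Part of this agreement is fixed by construction. The other filters and the replicate block leave each log2 fold change as it was, so only p-values can differ. The block with GC and length trends removed likewise repeats the fold changes of that removal. Of the 62, 21 came from setting rod genes equal, which moves all genes up together (median of all genes 0.24). Another 2 came from scaling without lens genes, which moves them down together. These 23 come from shifts shared by all genes, so the signs of those genes depend on the scaling. Which scaling is right was not tested. Over all genes the number called was 30 in the analysis above, 15 after quantile normalization, 706 with rod genes set equal, 76 with GC and length trends removed, 141 with the replicate block, 579 with array weights, and 2 to 1245 when 1 library was left out: 4, 10 and 2 without 9.0 h replicates 1 to 3, and 1245, 61 and 13 without 1.5 h replicates 1 to 3. The replicate block was not taken as pairing, since deviations of same-numbered libraries correlated at 0.347, 0.484 and −0.215 (numbers 1 to 3, 13490 genes), and libraries with number 3 did not correlate best with each other. With it 0 of the 37 genes was called, and with GC and length trends also removed 33 genes in all. Between 0 and 3 of the 37 were called when 1 library was left out, the 3 without 1.5 h replicate 1. Among the related genes, chosen here after their values were seen, Dynlt1a, Dynll1, Rabl5, Tmem216, Mak, Pde6d and Gucy2f were also called without that library. By list these were 3 of 19 IFT and motor genes and 0 of 7 BBS-related genes. They were 1 of 21 transition zone genes and 3 of 16 outer segment genes. Over all tested genes 9.23% were called in that fit. Gucy2f was called as well when scaled without lens genes, with the replicate block and with array weights, Dynll1 with rod genes set equal and with array weights, and Dynlt1a with array weights.

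With rod genes set equal, 1 of the 37 was called, Rom1, and the median log2 fold change of all 37 was 0.116. By role it was 0.205 for disc genes, −0.0925 for the axoneme, 0.0599 for the connecting cilium, 0.103 for BBS genes, 0.182 for IFT-B, 0.238 for IFT-A, 0.0473 for kinesin-2 and 0.357 for lipidated cargo. The disc median was −0.148 after quantile normalization and −0.124 when scaled without lens genes, the cargo median −0.0315 after quantile normalization, and the axoneme median −0.21 with GC and length trends removed, with or without the replicate block. When 1 library was left out, the disc median was −0.0722 to 0.0402 and that of the connecting cilium −0.324 to −0.152.

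The following log2 fold changes had the other sign, all of genes not called in either fit. With rod genes set equal these were Prph2 0.149, Prom1 0.205, Rpgr 0.0888, Rpgrip1l 0.0599, Nphp4 0.0999, Bbs2 0.0944, Bbs4 0.111, Bbs7 0.00544, Bbs9 0.0725, Ttc8 0.209, Bbs10 0.0101, Bbs12 0.129, Arl6 0.209, Ift20 0.116, Ift57 0.216, Ift74 0.221, Ift81 0.141, Ift88 0.147, Ift172 0.0693, Ift122 0.113 and Kif3a 0.213. After quantile normalization they were Arl3 −0.0315 and Unc119 −0.00863, scaled without lens genes Bbs1 −0.0836 and Ift52 −0.0477, with array weights Rpgr 0.056 and Ttc8 0.0386, and with GC and length trends removed, with or without the replicate block, Prom1 0.0237, Rpgrip1l 0.0205, Ift27 −0.00184, Ift74 0.00723 and Ift88 0.0172. Leaving out 1 library changed the sign or the call of 17 genes, with these ranges: Prph2 −0.183 to 0.0402, Rp1 −0.501 to −0.212, Bbs5 −0.645 to −0.109, Ift27 −0.0124 to 0.188, Rp2h −0.575 to −0.194, Prom1 −0.11 to 0.0333, Rpgr −0.325 to 0.0354, Bbs1 −0.091 to 0.0993, Bbs4 −0.254 to 0.0619, Ttc8 −0.146 to 0.146, Arl6 −0.352 to 0.262, Ift57 −0.15 to 0.0451, Ift74 −0.303 to 0.156, Ift81 −0.336 to 0.121, Ift140 −0.022 to 0.297, Kif3a −0.141 to 0.093, Ift52 −0.0315 to 0.0794. The causes of these changes were not tested beyond the construction of each alternative. Kif17 and Rpgr had the fewest reads of the list.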
